A study of Mus musculus with 9 samples.

Results

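The integrin chains described here are the 8 genes Itgae, Itga1, Itga4, Itgb1, Itgal, Itgb2, Itga6 and Itga2, of 770 genes in the table. They were chosen by name, with earlier results of these data known, and each was followed through all 9 samples. Each sample was a sorted T cell subset from mice of the B10.RIII background. The tissues were the intraepithelial compartment of the gut (IE), the small-intestinal lamina propria (LP), the mesenteric lymph nodes (MLN) and the peripheral lymph nodes (PLN). Every tissue gave 1 CD8 and 1 CD4 sample, and IE also gave 1 sample labelled CD4CD8. All 9 samples carry the same protocol text. It names WT or Rag2-/- IRBP-/- R161H animals, immunization with IRBP161-180 in complete adjuvant, and a mixture of broad-spectrum antibiotics begun 1 week or at least 4 weeks earlier. Which genotype, antibiotic arm, age or number of mice stands behind a sample is not stated in the labels, and the promoter of the R161H transgene is not stated there either.

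Integrins are adhesion receptors made of an alpha and a beta chain, and the pairing sets the ligand. In T cells the alpha-E chain (Itgae, CD103) binds E-cadherin on epithelial cells with the Itgb7 chain. The alpha-1 and alpha-2 chains (Itga1, Itga2) bind collagens, and alpha-6 (Itga6) binds laminins, each with the beta-1 chain (Itgb1). The alpha-4 chain (Itga4) binds VCAM-1 and fibronectin with Itgb1, or the gut vascular addressin MAdCAM-1 with Itgb7. The alpha-L chain (Itgal) and the beta-2 chain (Itgb2) form LFA-1, which binds ICAM molecules on other leukocytes, endothelium and target cells. Itgb7 was not analysed here.

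Values are the deposited log2 normalized counts of a barcoded probe panel, and the lowest value, 4.32 (20 normalized counts), is a floor shared by all samples. The smallest value listed over that floor was 6.30 in IE CD4, 5.59 in LP CD8, 5.52 in IE CD4CD8 and 5.05 in IE CD8, and 4.34 to 4.38 in the remaining 5. For a gene listed at the floor, only this upper limit is known. There were no replicates, so each level is from 1 sample. The tests took as their spread the part of the tissue differences that varied between CD8 and CD4. The chains of the T cell receptor complex Cd3d, Cd3e, Cd3g and Cd247 lay above the floor in all 9 samples, Cd4 lay at the floor in the 4 CD8 samples, and Cd8a lay at the floor in the 4 CD4 samples. The CD4CD8 sample had Cd4 and Cd8a at 10.06 and 11.50 and Cd8b1 at the floor. The LP samples stood apart in epithelial markers. Of 9 measured, 6 were above the floor in each LP sample, Ceacam1, Ccl25 and Dmbt1 in LP alone, with summed levels of 5793 (CD8) and 7221 (CD4) normalized counts, against 260.4 to 647.4 in the IE samples and 39.1 to 99.3 in the nodes. Of this list, Cdkn1a was above the floor in all 9 samples (4.73 to 8.35), and alone in MLN CD4 and PLN CD4. In IE CD4 only Cdh1 and Cdkn1a were above it, and Cdh1 was highest in IE CD8 (8.95). Muc1, Egfr and Lcn2 were at the floor in all 9. Of 18 myeloid markers 13 were at the floor in all 9, but Lyz2, the macrophage lysozyme, was 8.98 in LP CD8 and 9.52 in LP CD4, against 4.32 to 4.53 in the other samples. The summed level of the myeloid list was 505 (CD8) and 835.5 (CD4) in LP, against 43.1 to 264.1 in IE and 24.6 to 79.2 in the nodes. In LP CD8 that sum is Lyz2 alone, the only myeloid marker above the floor there. Cybb and Cd68 went the other way and were highest in IE CD4 (7.47 and 6.44). They were 5.58 and 5.01 in LP CD4 and at the floor in LP CD8. The part of other cells' RNA in the LP values of the integrin chains was not tested. The mean of Cd3d, Cd3e, Cd3g and Cd247 was also lowest in LP (10.05 in CD8 and 9.82 in CD4, against 10.70 to 11.26 in IE and 10.43 to 10.58 in the nodes). Cd3d, Cd3e and Cd3g were each lowest in LP, but Cd247 was 8.84 and 8.96 there and 8.83 in IE CD8. Cd2, another T cell marker, was higher in LP (7.13 and 7.73) than in IE (4.32 to 6.88). The mean is thus not an even measure of T cell content. In such bulk RNA, fewer T cells and less RNA per cell cannot be told apart. Levels of different genes come from different probes and are not compared with each other.

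**Figure D1:**
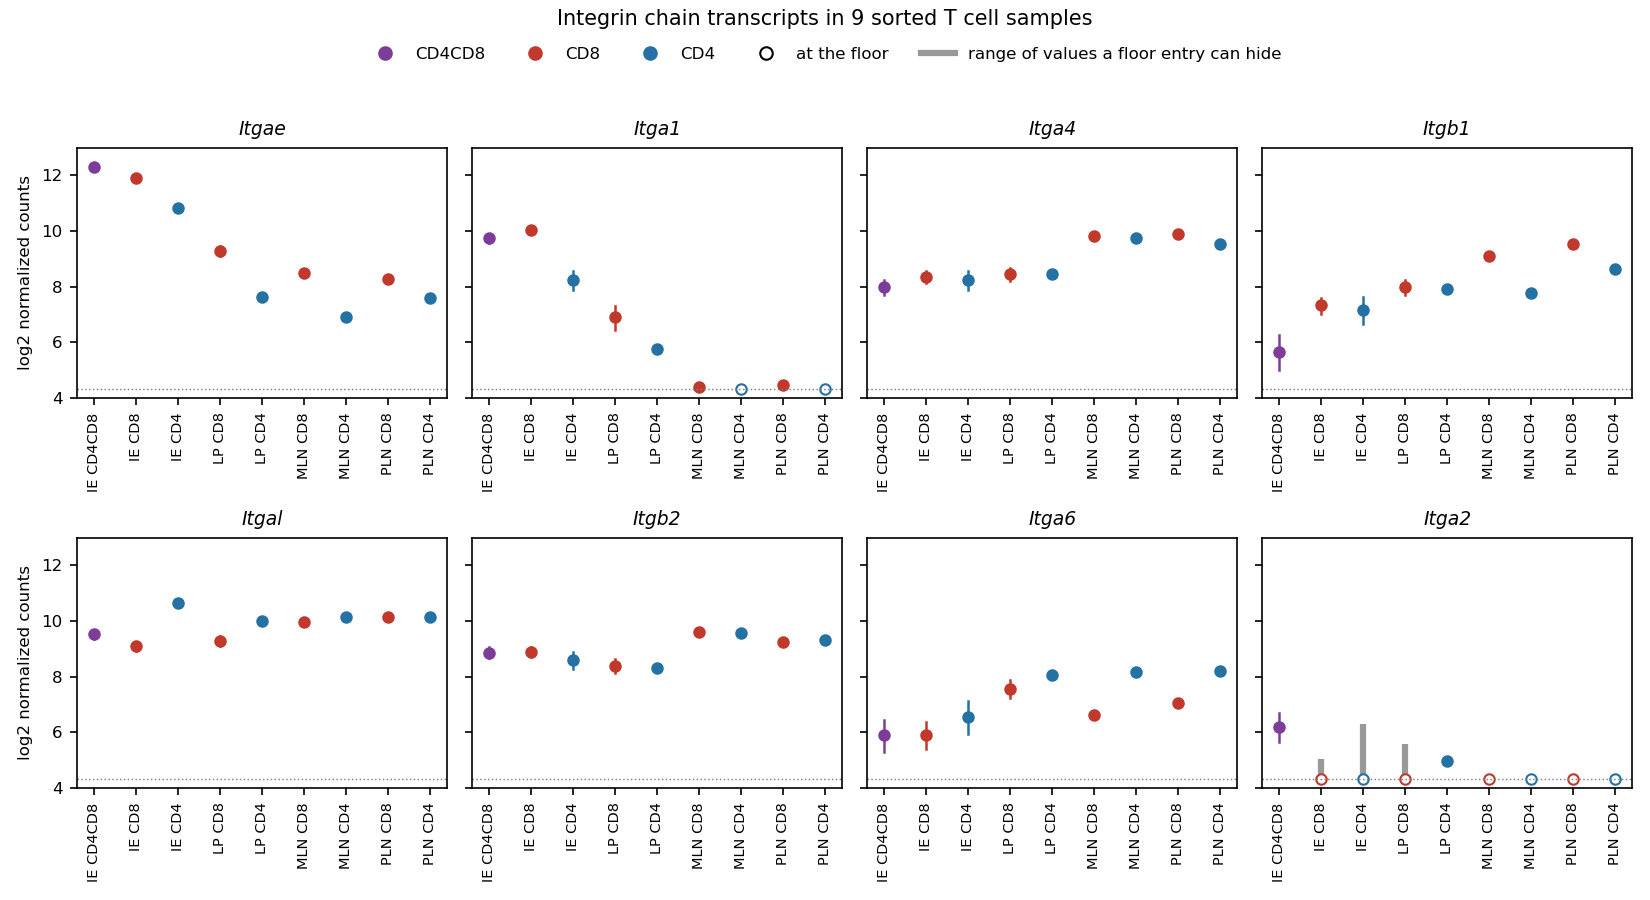
Log2 normalized counts (y axis) of the 8 integrin chains in each of the 9 samples (x axis), coloured by subset. Thin bars are 95% counting intervals where counts could be recovered, open points are values at the floor of 4.32, and grey bars run from the floor to the sample's limit; Itgae and Itga1 are highest in the IE samples, while Itga4, Itgb1 and Itgb2 are highest in lymph node samples.

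Itgae and Itga1 were the chains with the widest ranges, and both were highest in the intraepithelial samples. Itgae was 12.29 in IE CD4CD8, 11.90 in IE CD8 and 10.84 in IE CD4. In LP it was 9.29 in CD8 and 7.63 in CD4. In the nodes it was 8.50 in MLN CD8, 6.91 in MLN CD4, 8.26 in PLN CD8 and 7.59 in PLN CD4. The 3 IE samples lay above the other 6 with no overlap, and LP CD4 lay among the node samples. From the highest to the lowest sample the range was 41.6-fold. Neighbours in the order of Itgae levels were set against the residual SD of the fit (0.27). MLN CD8 and PLN CD8 were not separated by that measure, nor were LP CD4 and PLN CD4, and the other neighbours were.

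Itga1 is a chain known from T cells that stay in tissue. Its level was 10.04 in IE CD8, 9.73 in IE CD4CD8 and 8.23 in IE CD4, and 6.89 in LP CD8 and 5.76 in LP CD4. In the nodes it was 4.40 in MLN CD8 and 4.46 in PLN CD8, close to the floor, and at the floor in MLN CD4 and PLN CD4. The IE, LP and node samples formed 3 ranges without overlap. IE CD8 and IE CD4CD8 were not separated by the residual SD of 0.52, and the 4 node samples were not separated from each other. The 250 bases upstream of the annotated start are shown for Itga1, and further down for Itga4 and Itgb1, since Itga1 differed between IE and nodes in the direction opposite to the other 2. The Itga1 sequence lies at chr13:115101965-115102214 on the minus strand of GRCm38.p6 (RefSeq). Promoters of 4 members matched in the RefSeq table: Itga1, Itga2, Itga4 and Itgb1.
Itga1 promoter: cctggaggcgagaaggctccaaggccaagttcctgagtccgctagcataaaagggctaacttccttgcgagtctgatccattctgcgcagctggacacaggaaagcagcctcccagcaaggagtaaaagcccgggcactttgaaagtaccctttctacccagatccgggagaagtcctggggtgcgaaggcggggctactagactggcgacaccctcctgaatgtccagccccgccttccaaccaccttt
In these letters, both strands were searched for TGTGGT, which RUNX factors bind, for GGGCGG, which Sp factors bind, and for CCGGAA, which Ets factors bind. None of these 3 motifs was in the Itga1 window. Of 32851 promoters of the same length, 14.1% hold the RUNX letters, 32.7% the Sp letters and 12.0% the Ets letters.

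IE samples were compared with the node samples (LN, the mean of MLN and PLN), with the CD8 and CD4 pairs of all 4 tissues in the fit. Itgae was higher in IE by 3.56 ± 0.24 (log2 difference with the standard error of the 8-sample fit, as in all differences below; 11.8-fold; adjusted p = 0.00191). Itga1 was higher by 4.76 ± 0.45 (27.1-fold, adjusted p = 0.00342). For CD4 samples alone, where both nodes were at the floor for Itga1, the IE level was at least 14.6-fold higher. With all values under 6.30 raised to that value, the Itga1 difference was 2.84 (adjusted p = 0.0348). Itga4, Itgb1, Itgb2 and Itga6 were lower in IE, as given below. Thus 6 of the 7 members tested passed, 2 higher and 4 lower, where 31.4% of all 433 genes tested passed. The median difference was -0.70 over the 7 members and 0.00 over all genes. Itga2 lay above the floor in only 1 of the 8 CD8 and CD4 samples and was not tested in any comparison.

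LP samples were compared with the same node samples, so both comparisons share their node values. Itga1 was higher in LP by 1.95 ± 0.45 (3.86-fold, adjusted p = 0.0385), and in CD4 samples alone at least 2.63-fold. Itgae did not pass in LP, with a difference of 0.65 ± 0.24 (adjusted p = 0.119). By subset, Itgae in LP differed from the node mean by 0.91 in CD8 and 0.38 in CD4. Of 7 members tested, 1 was higher and 2 were lower in LP, where 22.6% of all genes passed. The Itga1 call ended without the MLN pair (1.94, adjusted p = 0.106), without the PLN pair (1.97, adjusted p = 0.121), with no filter (adjusted p = 0.14), with tissue alone (adjusted p = 0.111) and with values raised to 6.30 (0.30, adjusted p = 0.828). When each sample was centred on its 4 receptor chain genes, a setting added after the data were seen, the Itgae difference was 1.19 and passed (adjusted p = 0.0157). That centring moves every gene by 0.55 in LP minus LN, by -0.35 in IE minus LN and by -0.90 in IE minus LP.

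Set directly against LP, the IE samples had more Itgae and Itga1 and less Itga6. Itgae was higher in IE than in LP by 2.91 ± 0.27 (7.52-fold, adjusted p = 0.00391), with 2.61 in CD8 and 3.21 in CD4. Itga1 was higher by 2.81 ± 0.52 (7.01-fold, adjusted p = 0.0231), with 3.15 in CD8 and 2.47 in CD4. Itga6 was lower by 1.59 ± 0.30 (log2 difference -1.59, adjusted p = 0.0243). These were 3 of 7 members tested, where 22.2% of all genes passed. In a fit with tissue alone as a term none of the 3 passed (adjusted p = 0.0811 for Itgae, 0.0683 for Itga1 and 0.224 for Itga6), and none passed with sample weights (0.0579, 0.0687 and 0.104 in that order). Without the PLN pair, Itga1 and Itga6 did not pass (0.0603 and 0.0724), and without the MLN pair Itga1 did not (0.0529). With no filter and with values raised to 6.30, Itga1 (0.0982 and 0.0719) and Itga6 (0.0821 and 0.119) did not pass.

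**Figure D2:**
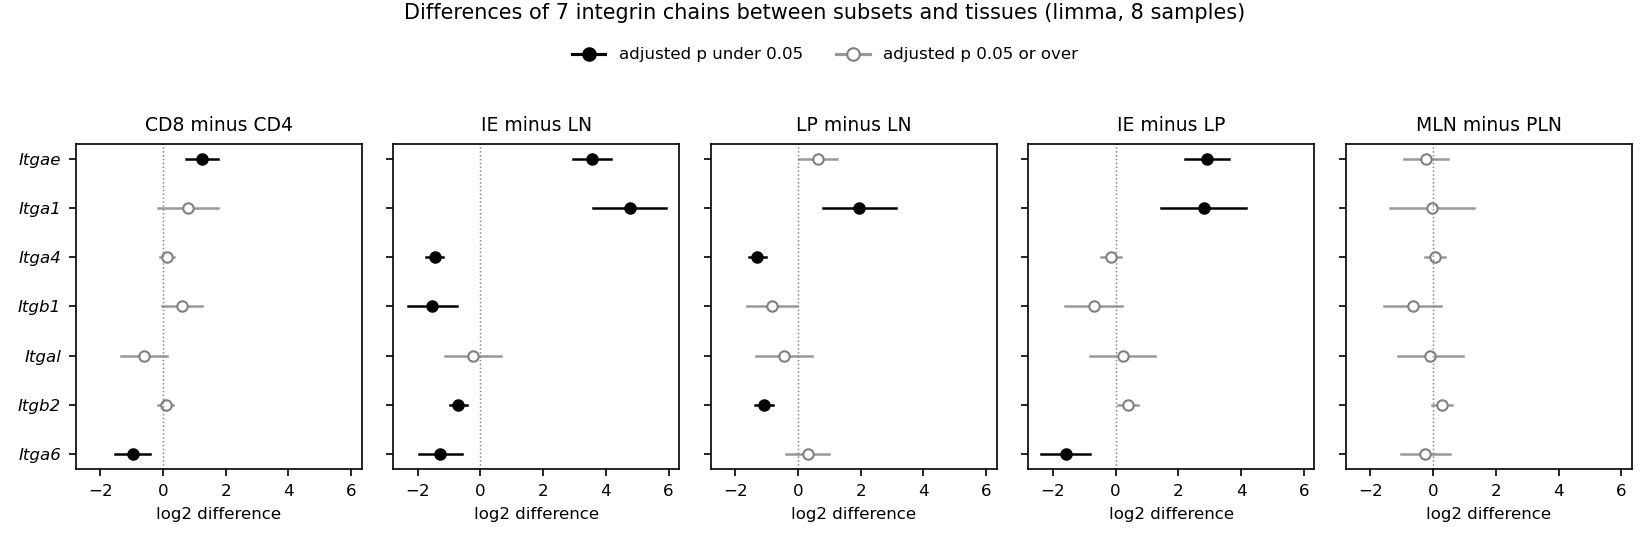
Log2 differences (x axis) of 7 integrin chains (rows) in 5 comparisons, with 95% intervals from the limma fit over 8 samples; LN is the mean of MLN and PLN, and filled points passed an adjusted p of 0.05. Itgae and Itga1 lie right of 0 and Itga4 and Itgb2 left of 0 in IE minus LN, and no chain passed in MLN minus PLN.

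The alpha-4 chain ran the other way. Itga4 was 7.98 in IE CD4CD8, 8.34 in IE CD8 and 8.23 in IE CD4, and 8.44 in both LP CD8 and LP CD4. Node samples had 9.81 in MLN CD8, 9.74 in MLN CD4, 9.89 in PLN CD8 and 9.53 in PLN CD4. The 5 gut samples lay below the 4 node samples with no overlap. Among neighbours in the order of gut samples, only IE CD4 and IE CD4CD8 were separated by more than the residual SD of 0.12. The Itga4 difference was -1.46 ± 0.11 in IE (2.75-fold lower, adjusted p = 0.002) and -1.30 ± 0.11 in LP (2.47-fold lower, adjusted p = 0.00245) against the nodes. The IE and LP samples differed by -0.16 ± 0.12 (95% interval -0.47 to 0.16, adjusted p = 0.434). Centred on the receptor chain genes, the LP difference was -0.75 and still passed (adjusted p = 0.0364), and IE was lower than LP by 1.05 (log2 difference -1.05, adjusted p = 0.0153). The Itga4 window lies at chr2:79255176-79255425 on the plus strand, and the Itgb1 window at chr8:128685404-128685653 on the plus strand. Capitals mark motif letters.
Itga4 promoter: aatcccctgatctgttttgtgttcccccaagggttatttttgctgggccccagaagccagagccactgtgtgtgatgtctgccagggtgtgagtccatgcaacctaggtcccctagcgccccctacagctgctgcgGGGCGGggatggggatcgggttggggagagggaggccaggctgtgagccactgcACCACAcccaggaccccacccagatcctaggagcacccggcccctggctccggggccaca
Itgb1 promoter: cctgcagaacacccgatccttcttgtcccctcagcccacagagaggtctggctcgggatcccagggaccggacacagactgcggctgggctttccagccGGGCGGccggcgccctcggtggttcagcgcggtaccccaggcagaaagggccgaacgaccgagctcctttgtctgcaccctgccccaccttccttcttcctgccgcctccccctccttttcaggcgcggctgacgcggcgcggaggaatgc
The Itga4 window holds the Sp letters at position -114 from the annotated start and the RUNX letters on the reverse strand (so printed as their reverse complement) at -60. The Itgb1 window holds the Sp letters at -151. These matches are a description of the letters and were not tied to binding.

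Itgb1, the partner chain of Itga1, Itga2, Itga4 and Itga6, was lower in IE than in the nodes. It was 5.66 in IE CD4CD8, 7.32 in IE CD8 and 7.15 in IE CD4, and 7.97 in LP CD8 and 7.90 in LP CD4. Node levels were 9.11 in MLN CD8, 7.77 in MLN CD4, 9.54 in PLN CD8 and 8.64 in PLN CD4. The IE samples lay below all node samples, while the LP samples lay above MLN CD4. By the residual SD of 0.35, LP CD8, LP CD4 and MLN CD4 were not separated, nor were IE CD8 and IE CD4, and IE CD4CD8 stood 1.49 below the next sample. The IE difference was -1.53 ± 0.30 (2.89-fold lower, adjusted p = 0.0218) and the LP difference -0.83 ± 0.30 (adjusted p = 0.118). IE less LP was -0.70 ± 0.35 (adjusted p = 0.247), and -1.60 with receptor chain centring (adjusted p = 0.0297). The IE call ended without the PLN pair (-1.21, adjusted p = 0.142), without the LP pair (adjusted p = 0.0538), with values raised to 6.30 (adjusted p = 0.053), with sample weights (adjusted p = 0.064), with tissue alone (adjusted p = 0.0737) and with no filter on the floor (adjusted p = 0.0854).

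The 2 chains of LFA-1 had different patterns. Itgb2 was 8.86 in IE CD4CD8, 8.88 in IE CD8 and 8.58 in IE CD4, and 8.39 in LP CD8 and 8.30 in LP CD4. Levels in the nodes were 9.60 in MLN CD8, 9.56 in MLN CD4, 9.24 in PLN CD8 and 9.33 in PLN CD4. All gut samples lay below all node samples. The Itgb2 difference was -0.70 ± 0.11 in IE (1.63-fold lower, adjusted p = 0.0105) and -1.09 ± 0.11 in LP (2.13-fold lower, adjusted p = 0.00448). Centred on the receptor chain genes, these were -1.05 and -0.54 (adjusted p = 0.00312 and 0.0345). IE and LP differed by 0.39 ± 0.12 (adjusted p = 0.0959), which was 0.47 and passed with housekeeping centring (adjusted p = 0.0391) and was -0.51 with receptor chain centring (adjusted p = 0.0375). Without the MLN pair the IE difference from the nodes was -0.56 and did not pass (adjusted p = 0.0953).

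Itgal was 9.52 in IE CD4CD8, 9.08 in IE CD8 and 10.65 in IE CD4, and 9.29 in LP CD8 and 9.99 in LP CD4. In the nodes it was 9.97 in MLN CD8, 10.13 in MLN CD4 and 10.14 in both PLN CD8 and PLN CD4. IE CD4 was the highest of the 9 samples and IE CD8 the lowest, 2.97-fold apart, and tissues overlapped. No comparison of Itgal passed: the difference was -0.23 ± 0.35 in IE (95% interval -1.13 to 0.67) and -0.46 ± 0.35 in LP (95% interval -1.35 to 0.44) against the nodes (adjusted p = 0.674 and 0.366). Within a sample, Itgal less Itgb2 was 0.20 in IE CD8 and 2.07 in IE CD4, and 0.90 in LP CD8 and 1.69 in LP CD4. In the nodes that value was 0.37 in MLN CD8, 0.57 in MLN CD4, 0.90 in PLN CD8 and 0.81 in PLN CD4. Its level depends on the probes, and only its change between samples can be read.

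The laminin-binding chain Itga6 was low in IE. Its level was lower in CD8 than in CD4 in every tissue, though in IE the counting intervals of the CD8 and CD4 samples overlapped. It was 5.90 in both IE CD4CD8 and IE CD8 and 6.56 in IE CD4, and 7.56 in LP CD8 and 8.07 in LP CD4. In the nodes it was 6.61 in MLN CD8, 8.16 in MLN CD4, 7.06 in PLN CD8 and 8.21 in PLN CD4. LP CD4, MLN CD4 and PLN CD4 were not separated by the residual SD of 0.30, nor were MLN CD8 and IE CD4. The IE difference from the nodes was -1.28 ± 0.26 (2.43-fold lower, adjusted p = 0.0234), and the LP difference was 0.31 ± 0.26 (adjusted p = 0.42). Itga6 and Itgb4 form the laminin receptor of epithelial hemidesmosomes. Itgb4 was 6.13 in LP CD8 and 5.37 in LP CD4, 5.52 in IE CD4CD8, and at the floor in the other 6 samples (IE CD4 and IE CD8 with limits of 6.30 and 5.05). No test is given, since among the 8 fitted samples Itgb4 exceeded the floor in the LP pair alone. The LP samples are also those with the epithelial markers given above, Epcam among them at 9.21 in CD8 and 9.48 in CD4. The part of such RNA in the LP level of Itga6 was not tested. The IE call of Itga6 ended without the PLN pair (-1.16, adjusted p = 0.13), without the LP pair (adjusted p = 0.0538), with values raised to 6.30 (-1.08, adjusted p = 0.123), with sample weights (adjusted p = 0.0735), with tissue alone (adjusted p = 0.206) and with no filter on the floor (adjusted p = 0.0736).

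Itga2, a collagen-binding chain that mouse NK cells carry as CD49b, was above the floor in 2 samples. It was 6.20 in IE CD4CD8 and 4.97 in LP CD4. The IE CD4CD8 level was at least 2.22-fold above IE CD8, at least 1.53-fold above LP CD8 and at least 3.53-fold above each node sample. It lay below the limit of IE CD4 (6.30), so those samples cannot be ordered, and the same holds for LP CD4 against LP CD8. The IE CD4CD8 level rests on 32 counts. Itga2 and Itga1 are neighbours on chromosome 13, with 0 genes annotated between them in the RefSeq gene table, and Itga1 was detected in each of the 5 gut samples. Of 8 NK cell markers measured, 1 was above the floor in IE CD4CD8 (Klrd1, 9.30). In LP CD4, 4 were above it: Ncr1 at 5.09, Klrk1 at 6.70, Klrc1 at 5.47 and Klrd1 at 6.32, against 1 in each of the other 3 CD4 samples. Those levels of Ncr1 and Klrc1 lie below the limits of IE CD4 (6.30) and IE CD4CD8 (5.52). They could go unseen in these 2 IE samples, so the counts of markers there are not on equal terms. The part of NK cell RNA in the LP CD4 level of Itga2 was not tested.

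CD8 samples were set against CD4 samples within each tissue. Itgae was higher in CD8 in 4 of 4 tissues, by 1.06 in IE, 1.66 in LP, 1.59 in MLN and 0.67 in PLN (fit 1.25 ± 0.19, 2.37-fold, adjusted p = 0.0197). Itga6 was lower in CD8 in 4 of 4 tissues, with differences of -0.66 in IE, -0.51 in LP, -1.55 in MLN and -1.15 in PLN (fit -0.97 ± 0.21, adjusted p = 0.0457). These were 2 of 7 members, where 14.8% of all genes tested passed. The median over the members was 0.14 and that over all genes -0.14. The Itga6 call ended in 8 of 14 alternatives, with adjusted p-values of 0.0537 to 0.184 there. The Itgae call ended without the LP pair (adjusted p = 0.127), without the MLN pair (0.0993), with values raised to 6.30 (0.0644) and with no filter (0.0882). The CD8 minus CD4 difference of Itgb1 was 0.62 ± 0.25 (adjusted p = 0.163), and 1.01 with sample weights, where it passed (adjusted p = 0.00964).

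**Figure D3:**
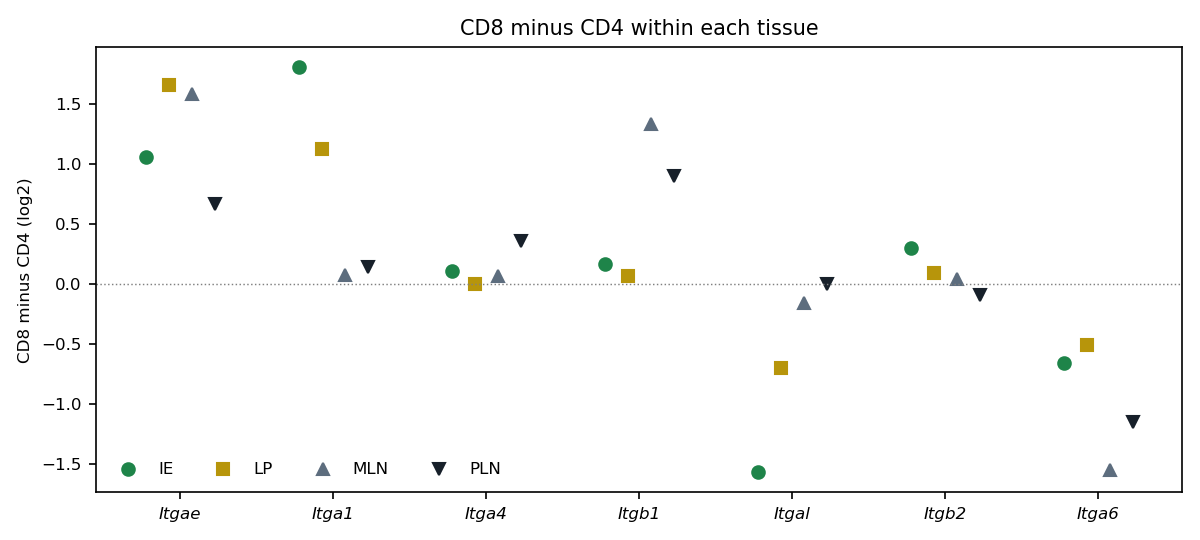
CD8 minus CD4 on the log2 scale (y axis) for 7 integrin chains (x axis), with 1 point per tissue. Itgae lies above 0 and Itga6 below 0 in all 4 tissues, Itga1 and Itgal have their largest differences in IE and LP, and Itgb1 in the nodes.

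Whether the CD8 minus CD4 difference of a chain was the same in gut and nodes was asked next, and no member passed that test. Itga1 was higher in CD8 by 1.81 in IE and 1.13 in LP, against 0.08 in MLN and 0.14 in PLN, where its level was close to the floor. Itgb1 was higher in CD8 by 0.17 in IE and 0.07 in LP, against 1.34 in MLN and 0.90 in PLN. Itgal differed by -1.57 in IE and -0.70 in LP, against -0.16 in MLN and 0.00 in PLN. The difference of these differences, gut less node, was tested with its own term. It was 1.36 ± 0.39 for Itga1, -1 ± 0.21 for Itgb1, -1.06 ± 0.33 for Itgal and 0.77 ± 0.25 for Itga6 (adjusted p = 0.165, 0.113, 0.191 and 0.199), so none of the 7 members passed, where 1.39% of all genes did. At an unadjusted p under 0.05 these 4 members were among 94 genes. Without the LP pair the Itga1 value was 1.70 and passed (adjusted p = 0.0465), and with receptor chain centring that of Itgb1 was -1.28 and passed (adjusted p = 0.0353).

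No member passed between MLN and PLN samples. The percentage of all genes that passed was 0 with limma, and 20 of 433 genes had an unadjusted p under 0.05, none of them a member. With sample weights 19 genes passed, and with no filter or with values raised to 6.30 there was 1, again with 0 members in each. The largest member difference was that of Itgb1, -0.65 ± 0.35 (95% interval -1.56 to 0.26, adjusted p = 0.979). Itgb2 differed by 0.30 ± 0.12 (95% interval -0.03 to 0.62), with 0.36 in CD8 and 0.23 in CD4.

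The IE CD4CD8 sample has no counterpart elsewhere and was compared by value only. Counts recovered from the steps of the low values give 95% Poisson intervals, which cover counting error alone. Itgae had 2180 counts in IE CD4CD8, 2302 in IE CD8 and 465 in IE CD4. Its log2 level was above that of IE CD8 by 0.39 and of IE CD4 by 1.45, beyond the counting intervals. These intervals do not cover scaling between samples. The mean of Cd3d, Cd3e, Cd3g and Cd247 was also higher in IE CD4CD8 (11.26) than in IE CD8 (10.96) and IE CD4 (10.70). How much of the 0.39 is a matter of scaling was not tested. Itga1 had 370 counts in IE CD4CD8 (log2 interval 9.58 to 9.88), 634 in IE CD8 (9.93 to 10.15) and 76 in IE CD4 (7.88 to 8.55), and was nearer to IE CD8. Itgb1 had 22 counts in IE CD4CD8 (log2 interval 4.99 to 6.26), 96 in IE CD8 (7.01 to 7.60) and 36 in IE CD4 (6.63 to 7.62). It was the chain in which the CD4CD8 sample lay farthest below both others, by 1.66 and 1.49. The intervals of Itga6 and Itga4 in IE CD4CD8 overlapped those of both other IE samples. Itga6 rests on 26, 36 and 24 counts in IE CD4CD8, IE CD8 and IE CD4.

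**Figure D4:**
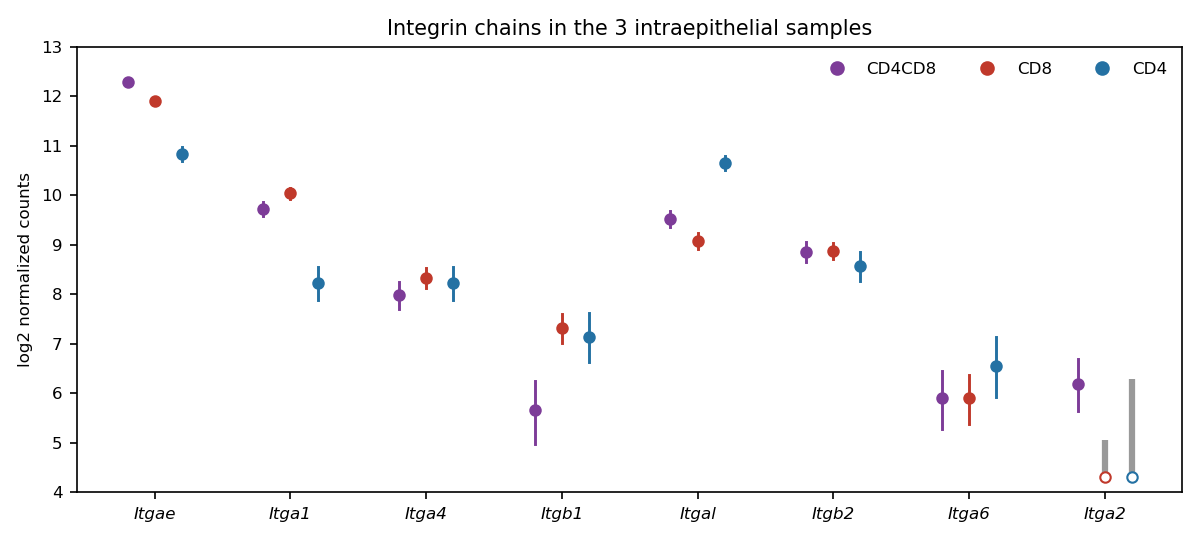
Log2 normalized counts (y axis) of the 8 chains (x axis) in IE CD4CD8, IE CD8 and IE CD4. Bars are 95% Poisson intervals of counting error, open points are at the floor and grey bars reach the sample's limit; Itgb1 in IE CD4CD8, at 5.66, lies below the other IE samples.

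Genes with the most similar pattern were sought among 372 other genes, by Pearson's r over the 9 samples, which share their scaling and floor. For Itgae these were Slamf7, a SLAM family receptor (r = 0.977), Tnfsf10, which encodes TRAIL (0.976), and Tbx21, which encodes the transcription factor T-bet (0.97). For Itga1 they were Gzmk, a granzyme (0.989), Mcam, an adhesion molecule (0.988), and Litaf (0.986). Among the members, Itgae and Itga1 had an r of 0.95. For Itga4 they were Tlr1, a Toll-like receptor (0.974), Polr1b, an RNA polymerase subunit used as a housekeeping gene (0.968), and Ltb, lymphotoxin beta (0.959). Tlr1 and Polr1b were each at the floor in 4 of the 5 gut samples, all but LP CD4. Their node levels were 5.86 to 6.24 and 5.21 to 5.52. Such levels of both genes could go unseen in IE CD4 (limit 6.30), and those of Polr1b also in LP CD8 (limit 5.59). The r values of these 2 genes thus rest in part on unlike limits. For Itgb1 they were Il7r, the IL-7 receptor chain (0.939), Thy1 (0.932) and Socs1 (0.919). For Itgb2 they were Atm, a DNA damage kinase (0.948), Ifi35 (0.91) and Ikzf1, the factor Ikaros (0.891). For Itga6 they were Pvr, a nectin-like adhesion molecule (0.948), Tnfrsf12a (0.902) and App (0.892), all 3 at the floor in the 3 IE samples. The limits there were 5.05 in IE CD8, 5.52 in IE CD4CD8 and 6.30 in IE CD4. Some levels seen elsewhere, such as Pvr at 5.93 in LP CD4, could thus go unseen in IE CD4. Itgal had the weakest matches, Cd84 (0.852), Sh2d1a (0.829) and Tnfsf8 (0.813).

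Ligands of these integrins were mostly at or near the floor. Of 13 measured, 6 were at the floor in all 9 samples, among them Vcam1 and Fn1, and 4 were tested, of which 1 was higher and 2 lower in both IE and LP, where 31.4% and 22.6% of all genes passed. Cdh1, which encodes E-cadherin, was 6.72 in IE CD4CD8, 8.95 in IE CD8 and 6.62 in IE CD4, 8.35 in LP CD8 and 8.37 in LP CD4, 5.41 and 5.38 in MLN CD8 and PLN CD8, and at the floor in the node CD4 samples. It was higher by 2.93 ± 0.50 in IE and 3.50 ± 0.50 in LP (adjusted p = 0.014 and 0.00981). Cdh1 is also one of the epithelial markers given above, which set the LP samples apart. The part of epithelial RNA in its gut levels was not tested. Icam2, a ligand of LFA-1, was lower by 1.37 and 0.76 (log2 differences -1.37 ± 0.17 and -0.76 ± 0.17, adjusted p = 0.00567 and 0.0331), and Cd47, which associates with integrins, by 0.72 and 0.67 (-0.72 ± 0.14 and -0.67 ± 0.14, adjusted p = 0.0189 and 0.0283).

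Of 17 tested genes of other adhesion and homing molecules, 4 were higher and 5 lower in IE than in the nodes, where 17.1% of all genes were higher and 14.3% lower. The 4 include Mcam, which was at the floor in all node samples. Mcam entered the fit through gut samples alone, so its call was favoured by the filter and no test is given. Ccr9, which binds the gut chemokine CCL25, was higher by 3.97 ± 0.92, and Amica1, a junctional adhesion molecule, by 3.61 ± 0.41 (adjusted p = 0.0337 and 0.00535). The Ccr9 value joins unlike subsets. Ccr9 was 10.42 in IE CD8 and 10.41 in IE CD4. In the nodes it was 8.33 in MLN CD8, 7.81 in PLN CD8, 5.32 in MLN CD4 and at the floor in PLN CD4. Its gut less node difference of CD8 minus CD4 was -3.3 ± 0.23 and passed (adjusted p = 0.0297), where 1.39% of all genes did. Ccr7, a chemokine receptor of lymph node homing, was lower (-4.74 ± 0.15, adjusted p = 0.000115). In LP, 2 of these genes were higher, Mcam again among them, and 2 lower, a share near the 22.6% of all genes that passed. For CD8 against CD4, where 14.8% of all genes passed, 2 were higher and 3 lower, among them Pecam1 at -0.99 ± 0.15 (adjusted p = 0.0193).

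Among 11 tested genes of the TGF-beta pathway and of tissue residence, 4 were higher and 2 lower in IE than in the nodes, and 0 higher and 2 lower in LP. Over all genes 31.4% passed in IE and 22.6% in LP. TGF-beta is known to induce Itgae in T cells. Tgfbr1, a TGF-beta receptor chain, was higher in IE by 0.92 ± 0.20, Tbx21 by 1.78 ± 0.27 and Runx3 by 0.87 ± 0.24 (adjusted p = 0.0273, 0.00983 and 0.0482). The 4 higher genes include Prdm1, which encodes Blimp-1. It was at the floor in all node samples and in LP CD8. Prdm1 was 5.73 in IE CD8, 6.19 in LP CD4, 7.18 in IE CD4CD8 and, at that sample's limit, 6.30 in IE CD4. No test is given for it, since Prdm1 entered the fit through gut samples alone. Tgfbr2, the partner receptor chain, was lower in IE (-0.55 ± 0.10) and LP (-0.76 ± 0.10; adjusted p = 0.0157 and 0.00729), and Smad3 was lower in IE (-0.78 ± 0.21, adjusted p = 0.0496). For CD8 against CD4, 3 were lower and none higher: Runx1 (-1.74 ± 0.19), Tgfbr1 (-0.88 ± 0.16) and Tgfb1 (-0.49 ± 0.07; adjusted p = 0.00984, 0.0303 and 0.0157), where 14.8% of all genes passed. Of 8 tested genes of signalling through integrins and the T cell receptor, 3 were higher in IE than in the nodes, Fyn, Zap70 and Mapk3, near the share of 31.4% over all genes. In LP 1 was higher and 3 lower, where 22.6% of all genes passed.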

How the data were processed

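RNA of sorted T cells was measured with biotinylated capture and barcoded reporter probes, per the labels' protocols. The deposited values are log2 normalized counts with 2 decimals. The instrument, the scaling and the rule for the floor were not given in the sources used. In 4 samples low values (up to 150 normalized counts) fell on whole multiples of 1 step within 0.0055 log2, which gave counts with 95% Poisson intervals and sums of 49051 to 137612 counts; in the other 5 the depth is unknown.

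Tests used limma 3.58.1 (R 4.3.3; lmFit and eBayes, trend on) over the 8 CD8 and CD4 samples, with tissue and subset as additive terms (3 residual degrees of freedom), or an added subset-by-gut term (2). LN is the mean of MLN and PLN. A gene entered if 2 or more of these 8 samples exceeded the floor, without 20 housekeeping genes of the table, which left 433. P-values are two-sided, adjusted by Benjamini-Hochberg over all tested genes, at a threshold of 0.05. Their error term is the variation of tissue effects between subsets of these samples, which nothing shows to be independent replicates. Values at the floor were used as 4.32.

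The members, gene lists and tests were chosen with earlier results of these data known. By rule, all 8 members were named, with the 3 most similar genes each (above the floor in at least 5 samples) and, from each list, called genes and the largest differences; neighbours closer than the residual SD count as not separated. Tables and figures were made with Python 3.11.15, pandas 2.3.3 and matplotlib 3.10.9. Alternatives covered scaling, floor, filter, variance model, weights, terms and each tissue pair left out.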

Additional observations from a re-analysis of the deposited data

How the results depend on the processing

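The CD8 and CD4 samples of a tissue were paired through the tissue term of the fit, and no further block by replicate number could be fitted because each group is 1 sample. Of 595 alternative values for single members, 535 kept their direction and side of the threshold, 43 lost the call, 7 gained it and 10 turned in sign; the cause was not tested. The count of members called for CD8 against CD4 (2) was 1 with median centring, without the variance trend, and without the IE or PLN pair, and 0 with no filter, with the raised floor of 6.30, and without the LP or MLN pair. The count for IE against LP (3) was 1 with no filter, with the raised floor and without the PLN pair, 0 with sample weights and with tissue alone, and 6 with receptor chain centring. The count for the gut less node difference of CD8 minus CD4 (0) was 1 without the LP pair and with receptor chain centring. The counts for IE or LP against nodes stayed within 1.5 times, at 4 to 6 and 2 to 4. Receptor chain centring, which lowers IE and raises LP against the nodes, turned Itgal to 0.093 in LP minus LN, and to -0.67 for Itgal and -0.51 for Itgb2 in IE minus LP (adjusted p = 0.0375 for Itgb2); it also turned Itga1 in MLN minus PLN (0.054), Itgb2 in CD8 minus CD4 (-0.019) and, in gut less node, Itgae (-0.051) and Itgb2 (-0.061). Sample weights turned Itgb2 in CD8 minus CD4 (-0.002), and the gut less node value of Itgae turned without the LP pair (-0.07) and without the PLN pair (-0.23). Receptor chain centring and the floor at each sample's limit were added after the data were seen. Median centring moved every gene by 0.18 in CD8 minus CD4 and by 0.16 in gut less node, and receptor chain centring by -0.10 and -0.28. Low counts limit Itga6, Itgb1 and Itga2 in the IE samples.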

Other observations

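Among 6 other integrin chains of the table, Itga2b, Itga5 and Itgam were at the floor in all 9 samples. Itgb3, known as a partner of Itga2b in platelets and of the alpha-V chain elsewhere, was at the floor in the 4 CD8 samples and above it in 3 of the 4 CD4 samples. It was 6.48 in LP CD4, 5.67 in MLN CD4, 6.07 in PLN CD4 and 5.72 in IE CD4CD8. IE CD4 was at the floor, with a limit of 6.30. No test is given, since Itgb3 entered the fit through CD4 samples alone. The platelet genes Itga2b and Ppbp were at the floor throughout. Itgax, the CD11c chain, was 5.43 in IE CD8 alone, below the limits of IE CD4CD8 (5.52), IE CD4 (6.30) and LP CD8 (5.59), so those samples cannot be set apart from it. Cd44, an adhesion receptor of activated T cells, was at the floor in all 9 samples. Whether its probe reads the transcript was not tested, so these values do not show that Cd44 was absent. Cd69 ran from 10.88 in IE CD8 to 12.28 in MLN CD8.

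Within a sample, Itga4 less Itgb1 was 2.32 in IE CD4CD8, 1.02 in IE CD8 and 1.08 in IE CD4. It was 1.97 in MLN CD4, against 0.70 in MLN CD8. Itga1 less Itgb1 ran between 4.07 in IE CD4CD8 and -5.08 in PLN CD8. Both ends rest on low values, Itgb1 at 5.66 in IE CD4CD8 (limit 5.52) and Itga1 at 4.46 in PLN CD8 (floor 4.32). In MLN CD4 and PLN CD4 Itga1 was at the floor, so the value there is not known exactly. These values depend on the probes, so their sign cannot be read, only their change between samples. Spp1, which encodes the integrin ligand osteopontin, was 6.06 in IE CD4CD8 and 5.05 in IE CD8 and at the floor elsewhere, and Tgfb3 was 6.24 in IE CD4CD8 and 5.49 in IE CD8 and at the floor elsewhere. IE CD4, with a limit of 6.30, cannot be set apart from either gene's values, and LP CD8, with a limit of 5.59, cannot be set apart from those of IE CD8.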
